A study of Mus musculus with 8 samples.

Results

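The cristae organising and prohibitin genes encode proteins that shape the folds of the inner mitochondrial membrane or act in it as proteases or a cation exchanger. These 10 nuclear genes are Immt, Chchd3, Chchd6, Apool, Samm50, Phb2, Letm1, Parl, Afg3l2 and Spg7. Their members in these data were all ATAC-seq regions that overlap the RefSeq span of one of these genes on GRCm38 or lie within 10 kb of it. This gave 32 of the 59906 regions of the table. ATAC-seq uses a transposase to insert sequencing adapters into accessible DNA, so the count in a region reads how open it is. Splenic conventional type 1 dendritic cells (cDC1), which present captured antigen to CD8 T cells, were sorted from CD11c-Cre;OPA1 flox mice (OPA1KO, 4 libraries) and from WT mice (4 libraries). CD11c is on many dendritic cells and some macrophages, so CD11c-Cre acts beyond cDC1, and the labels say neither whether the WT mice carried Cre or floxed alleles nor which part of Opa1 was floxed. Since no label ties a library to an animal, p-values cover the differences among libraries of a group, and those may be technical. In bulk libraries, a site open in fewer cells and a site less open in each cell cannot be told apart.

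Cristae are the folds of the inner mitochondrial membrane that carry the respiratory chain. OPA1, the GTPase deleted here, fuses inner membranes and narrows the cristae, and it works beside the complexes encoded by these genes. MICOS holds the neck of each crista; its core is Mic60, the product of Immt, with Mic19 (Chchd3), Mic25 (Chchd6) and the apolipoprotein-like Mic27 (Apool). SAMM50, a barrel protein of the outer membrane, ties MICOS to that membrane. PHB2 forms ring-shaped scaffolds in the inner membrane with its partner PHB, and LETM1 exchanges cations there. PARL is a rhomboid protease that cleaves PINK1 and PGAM5, and AFG3L2 and paraplegin (Spg7) are subunits of the m-AAA protease, which prohibitins bind.

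Start sites were taken from the RefSeq promoter table, which held 9 of the 10 genes; for Afg3l2 the region within 1 kb of a gene end was used in its place. Every one of the 10 genes had a region there, and the promoters differed in base composition and in known motifs. Sequences of 3 are shown: Phb2 had the highest start region per length, Chchd6 the lowest, and Apool the promoter with the lowest GC content. They are RefSeq sequences on GRCm38.p6, written 5′ to 3′ toward the gene and ending at the base before its start, without bases that lie in an annotated gene; capitals mark motif matches on either strand.

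Phb2 (chr6:124712187-124712288, + strand): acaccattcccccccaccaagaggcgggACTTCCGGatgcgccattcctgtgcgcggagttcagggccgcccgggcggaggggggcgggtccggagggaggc

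Chchd6 (chr6:89595653-89595902, - strand): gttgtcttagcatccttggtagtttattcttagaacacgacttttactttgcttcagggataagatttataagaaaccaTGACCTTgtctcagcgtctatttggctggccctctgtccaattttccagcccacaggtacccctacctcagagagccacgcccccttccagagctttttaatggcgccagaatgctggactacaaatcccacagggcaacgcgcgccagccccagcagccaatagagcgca

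Apool (chrX:112311102-112311351, + strand): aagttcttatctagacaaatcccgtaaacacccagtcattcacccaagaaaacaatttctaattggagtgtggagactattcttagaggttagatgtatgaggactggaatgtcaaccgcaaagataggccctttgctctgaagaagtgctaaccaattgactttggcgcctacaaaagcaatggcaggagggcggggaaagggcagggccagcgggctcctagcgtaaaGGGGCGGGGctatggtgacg

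The capitals are an ETS match (CCGGAAGT, the type bound by GABPA, a regulator of mitochondrial genes) before Phb2, an ERR match (AAGGTCA, bound by the nuclear receptors of that name) before Chchd6 and an SP1 match (GGGGCGGGG) before Apool. Over the whole window, from 250 bases before the start to 50 after it, Phb2 held 3 ETS matches, at −233, −74 and 3. Parl held 1 ETS match at −28 and a YY1 match (AAGATGGCG) at 33, Immt a CCAAT box (CCAATCA) at −84 and Chchd3 an E-box (CACGTG) at −3. Positions are those of the leftmost base of each match, counted from the start, where the first base of the gene is 1 and the base before it −1. Of all 21262 promoter windows of protein-coding genes, 5.15% held the ETS letters, 15.4% SP1, 9.11% the CCAAT box, 7.84% the E-box, 4.08% ERR and 1.83% YY1. The NRF1 core (GCATGCGC, in 3.51% of windows), CRE (TGACGTCA, 2.23%) and ATF4 composite (TGATGNAA, 3.60%) letters were in 0 of the 9 windows, and Samm50, Letm1 and Spg7 held none of the 9 motifs. All were searched as exact letters on both strands, and no match in these windows overlapped a match of another motif; a match is a stretch of letters and not a measured binding site. GC content was 49.3% to 64.7% with a median of 59.3%, against 56.3% over all windows, and Spg7 had 36 CpG dinucleotides where Apool had 10.

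Libraries held 4660826 to 7590578 counts. By chi-square per degree of freedom over their counts, the libraries farthest apart within a group were WT replicates 1 and 2, at 4.75. The lowest value was 2.16, for WT replicates 1 and 3. These values come from raw counts, so depth also enters their order, and WT replicate 3 had the fewest counts (4660826). The share of counts in start regions of protein-coding genes was 42.8% to 44.0% in OPA1KO libraries and 43.8% to 44.3% in WT libraries. Of 8 cDC1 marker genes, 7 had a region at a gene end, including the chemokine receptor gene Xcr1, and their summed level was 155 to 178 CPM in OPA1KO and 150 to 182 CPM in WT libraries. Monocyte and macrophage markers, with regions at 8 of 8 genes, summed to 126 to 154 CPM in OPA1KO and 137 to 172 CPM in WT libraries. Most of that sum was Cd68, with a mean of 95.4 CPM in both groups, whereas the macrophage genes C1qa, C1qb, C1qc, Vcam1 and Spic had lower means in OPA1KO libraries (1.99 to 7.71 CPM) than in WT libraries (3.10 to 10.2 CPM). Adgre1 went the other way, with means of 10.3 CPM in OPA1KO and 8.9 CPM in WT libraries. Csf1r was at 16.0 CPM in OPA1KO and 16.5 CPM in WT libraries. Markers of type 2 conventional dendritic cells (4 of 6) summed to 56.1 to 62.4 CPM in OPA1KO and 60.7 to 71.9 CPM in WT libraries. Those of plasmacytoid dendritic cells (3 of 5) were at 76.7 to 89.1 CPM in OPA1KO and 82.1 to 87.5 CPM in WT libraries. Neutrophil markers (3 of 4) were at 38.4 to 57.7 and 31.2 to 64.6 CPM, and B cell markers (2 of 5) at 25.1 to 29.2 and 27.0 to 33.8 CPM, OPA1KO first. Markers of T cells (2 of 5) summed to 71.4 to 98.8 CPM in OPA1KO and 80.0 to 107 CPM in WT libraries. The T cell sum came from Cd3d (57.2 CPM in OPA1KO and 56.4 CPM in WT) and Cd5 (32.1 CPM in OPA1KO and 33.5 CPM in WT), while Cd3e, Cd3g and Lck had no region at a gene end. Their part in the values below was not tested. The region at an end of Opa1 was at 34.6, 41.4, 38.0 and 43.0 CPM in OPA1KO libraries and 47.0, 40.7, 42.9 and 37.9 CPM in WT libraries, and since the deleted part is not given, it does not check the genotype.

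Accessibility at the 10 genes did not differ between OPA1KO and WT cDC1 beyond the test's threshold at any region. Of the 32 regions, 31 were kept by the filter on low counts. With p-values from the quasi-likelihood test of edgeR adjusted over all 59247 tested regions, 0 of the 31 were under 0.05, and 0.0203% of all tested regions were. At an unadjusted p under 0.05, 3 member regions were higher and 0 lower in OPA1KO, against 2.92% higher and 3.46% lower over all tested regions; DESeq2 and limma-voom gave 2 each and called 0. The median log2 fold change (OPA1KO minus WT) of the 31 regions was −0.04, with 11 higher and 20 lower, and that of all tested regions was 0.00. Directions differed by place. At starts, 9 of 10 members were lower (median −0.05), as were 61.7% of the 8970 tested start regions of all genes (median −0.03). Inside the genes, 9 of 14 regions were higher and 5 lower (median 0.14). Of the 50277 regions that are no start region, 48.8% were lower (median 0.01). In the flanks, where most regions lie over other genes, 6 of 7 were lower (median −0.06), against 50.7% of all tested regions. These differences between places were not tested.

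**Figure D1:**
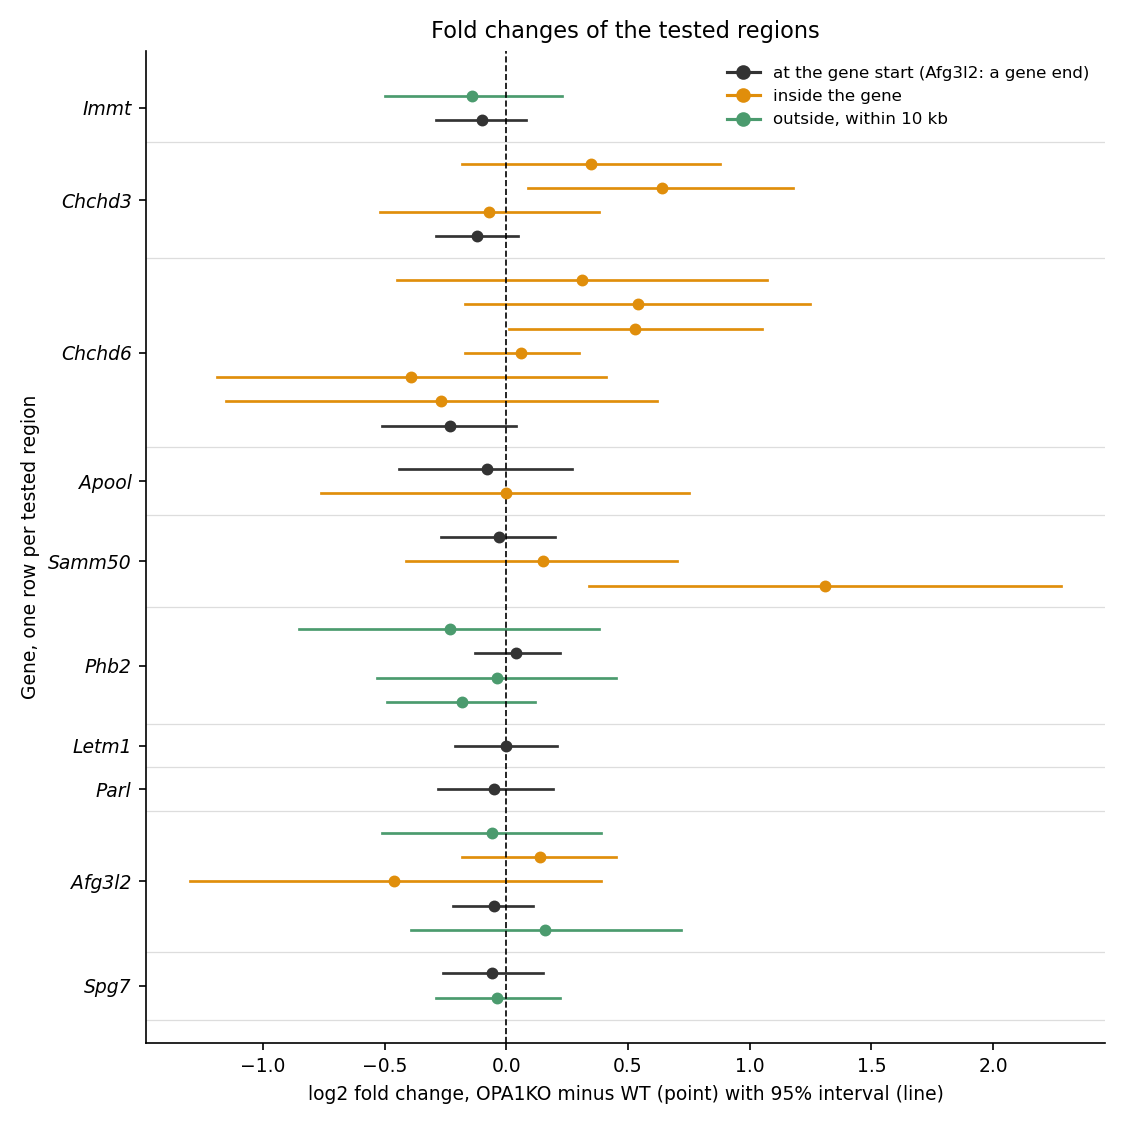
Log2 fold change (OPA1KO minus WT, x axis) of each of the 31 tested regions, grouped by gene down the page in the order of their positions on the chromosome, with its 95% interval as a line. Most regions at starts lie close to 0 with short intervals. The Chchd6 start is farthest from 0, at −0.23 (−0.51 to 0.04), and the Apool start has the widest interval of the starts (−0.44 to 0.27). The widest intervals of all belong to low regions inside genes, and the point at 1.31 is the region inside Samm50.

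The core MICOS gene Immt had, at its start, 126, 128, 131 and 116 CPM in OPA1KO libraries and 123, 166, 116 and 132 CPM in WT libraries (chromosome 6, 71831060 to 71831994). One WT library, replicate 2, was high and the other seven lay together. The means were 125 ± 6.39 CPM in OPA1KO and 134 ± 22.3 CPM in WT (SD, n = 4 each; log2 fold change −0.10 ± 0.09 SE, edgeR adjusted p = 0.903), and without WT replicate 2 the log2 fold change was 0.02. The 95% interval of the fold was 0.816 to 1.06. The other region in its window, 7.13 kb outside the gene, lay over an end of the mitochondrial ribosome gene Mrpl35 at 13.3 ± 1.66 CPM in OPA1KO and 14.5 ± 2.40 CPM in WT libraries.

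Chchd3, whose product Mic19 joins Mic60 to SAMM50, had 87.0, 99.0, 97.3 and 96.2 CPM at its start in OPA1KO libraries and 107, 102, 106 and 98.7 CPM in WT libraries (chromosome 6, 33059912 to 33060586). The groups overlapped by a single pair, OPA1KO replicate 2 just above WT replicate 4, and the log2 fold change was −0.12 ± 0.08 (edgeR adjusted p = 0.861). The 95% interval of the fold was 0.815 to 1.03. The gene is the longest of the 10 at 268067 bp, and 3 more regions lie inside it, at 8.15, 91.0 and 248 kb from the start. The one at 91.0 kb (32968897 to 32969224) was at 6.12, 9.98, 6.71 and 5.91 CPM in OPA1KO libraries and 3.65, 5.15, 3.17 and 6.28 CPM in WT libraries. WT replicate 4 lay among the OPA1KO values and the other WT libraries lay below them. It had the second smallest p of the tested members (log2 fold change 0.64 ± 0.27, unadjusted p = 0.0232, edgeR adjusted p = 0.705), and the unadjusted p was 0.124, 0.0663 and 0.0723 without OPA1KO replicate 2, WT replicate 1 and WT replicate 3.

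Summed over its 3 inside regions, Chchd3 was at 21.9, 24.1, 20.8 and 24.1 CPM in OPA1KO libraries and 18.7, 19.7, 19.0 and 17.9 CPM in WT libraries. The groups did not overlap, in contrast to the start of the same gene, where the OPA1KO mean was the lower. This sum was formed after the single regions had been seen. It did not pass the same test run on such sums for 8245 genes (log2 fold change 0.27 ± 0.14, edgeR adjusted p = 0.759), which called 0.0849% of genes. Summed the same way, Samm50 was at 9.21 ± 2.75 CPM in OPA1KO and 6.71 ± 2.69 CPM in WT libraries (0.48 ± 0.26, edgeR adjusted p = 0.777) and Chchd6 at 67.7 ± 9.01 CPM in OPA1KO and 62.8 ± 5.67 CPM in WT libraries (0.11 ± 0.11, edgeR adjusted p = 0.898), both with overlapping groups. Over the 8301 genes with such regions, the groups did not overlap in 4.41%. Of the 6 member genes with inside regions, the groups were apart for Chchd3 and, in the other direction, for the single region of Parl described below.

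Chchd6, which encodes the Mic19 relative Mic25, was the one member whose highest region was not at its start. That region lies 173 kb into the gene (chromosome 6, 89421524 to 89422348) and is 824 bp wide. It was at 56.5, 47.7, 52.1 and 41.4 CPM in OPA1KO libraries and 39.6, 53.3, 47.3 and 49.4 CPM in WT libraries, higher than 91.5% of all regions of the table. The groups overlapped over most of their ranges (log2 fold change 0.06 ± 0.12, edgeR adjusted p = 0.962). At the start (89595067 to 89595853), levels were 25.9, 25.4, 29.3 and 29.9 CPM in OPA1KO libraries and 40.2, 28.7, 32.1 and 28.9 CPM in WT libraries, with WT replicate 1 the highest (−0.23 ± 0.13, edgeR adjusted p = 0.825). That start held 31.5% of the gene's summed level, against 64.2% to 96.2% for 8 other genes and the whole of Letm1, which has 1 region.

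No region lies between the Chchd6 start and 140 kb into the gene; 6 regions follow between 140 and 197 kb, and the 5 beside the strong one are each at 7.18 CPM or less in both groups. One of these, 182 kb in (89413583 to 89413941), was at 8.12, 9.80, 5.23 and 5.58 CPM in OPA1KO libraries and 4.41, 5.77, 5.07 and 4.49 CPM in WT libraries. OPA1KO replicates 1 and 2 were high and the other OPA1KO libraries lay with WT (log2 fold change 0.53 ± 0.26, unadjusted p = 0.0472, edgeR adjusted p = 0.774). Without OPA1KO replicate 1 or 2 or WT replicate 1, 3 or 4 its unadjusted p was at least 0.0591. Over the whole Chchd6 window the level was 95.3 ± 7.61 CPM in OPA1KO and 95.3 ± 2.63 CPM in WT libraries.

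**Figure D2:**
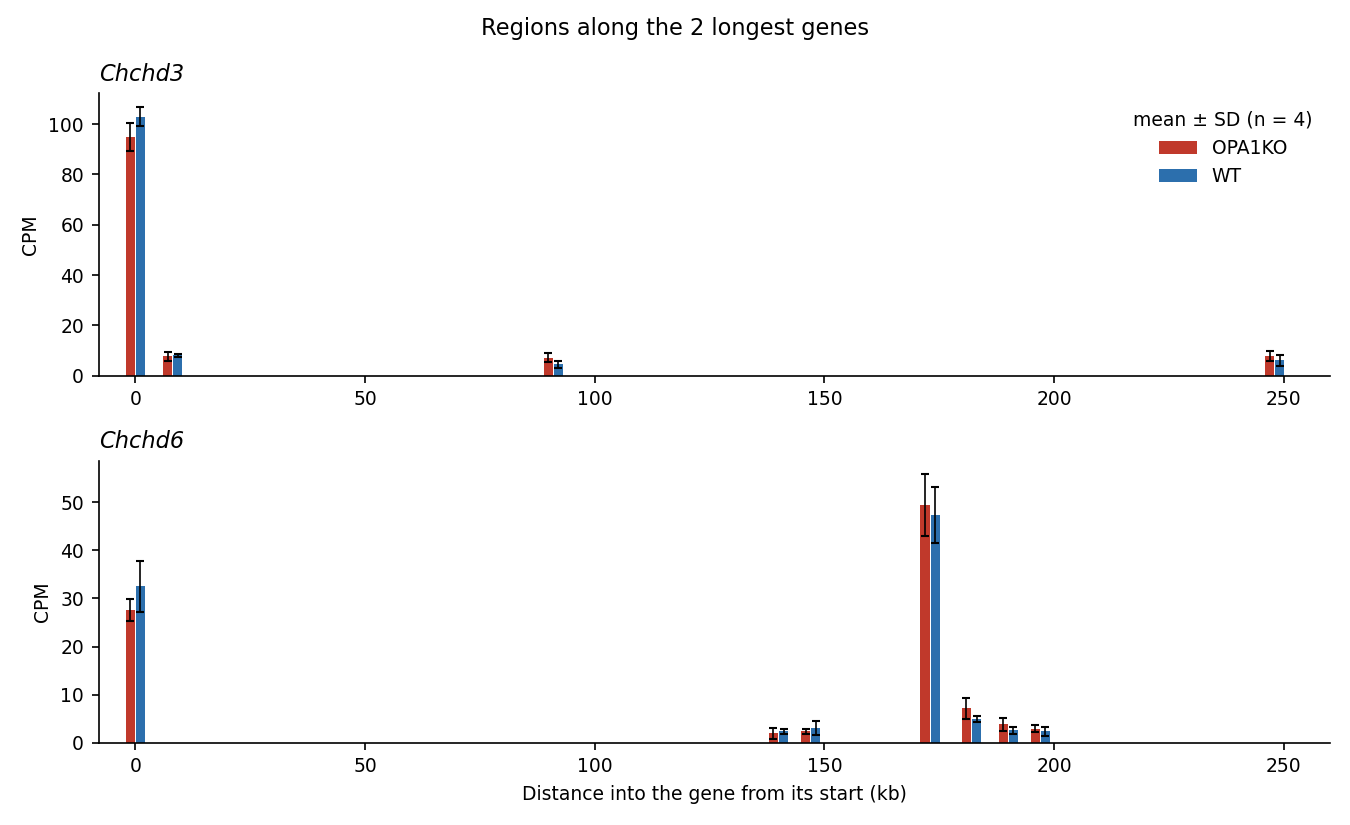
Mean level in CPM (y axis, bars from 0, error bars SD over 4 libraries) of each region of Chchd3 and Chchd6 against its distance into the gene from the start in kb, OPA1KO left of WT. Chchd3 is dominated by its start, while in Chchd6 the region at 173 kb, at 49.4 CPM in OPA1KO and 47.4 CPM in WT libraries, stands above the start.

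Apool on chromosome X, which encodes the cardiolipin-binding Mic27, had a narrow start region of 358 bp. It was at 15.5, 14.5, 15.3 and 18.7 CPM in OPA1KO libraries and 19.6, 12.9, 15.2 and 19.9 CPM in WT libraries (112311175 to 112311533), with the OPA1KO values inside the WT range (log2 fold change −0.08 ± 0.17, edgeR adjusted p = 0.968). Its level was above 27.9% of start regions, and it was wider than 14.7% of them. The 95% interval of the fold, 0.739 to 1.21, was wider than at the starts of Immt and Chchd3. The other region of Apool, 9.01 kb in, was at 2.74 ± 0.965 CPM in OPA1KO and 2.68 ± 1.09 CPM in WT libraries.

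Samm50, the outer membrane partner of MICOS, had 45.3, 45.9, 41.3 and 38.2 CPM at its start in OPA1KO libraries and 37.4, 49.0, 44.1 and 44.3 CPM in WT libraries (chromosome 15, 84191966 to 84192487). The OPA1KO values lay inside the WT range, and the log2 fold change was −0.03 ± 0.11 (edgeR adjusted p = 0.984). A low region 20.6 kb into the gene (84212882 to 84213111) had the smallest p of the tested members and the largest log2 fold change, 1.31 ± 0.47 (unadjusted p = 0.00946, edgeR adjusted p = 0.598). Its counts were 35, 8, 14 and 32 in OPA1KO libraries and 4, 9, 12 and 6 in WT libraries, or 4.98, 1.45, 1.88 and 5.25 CPM in OPA1KO libraries and 0.609, 1.40, 2.53 and 1.08 CPM in WT libraries. OPA1KO replicates 1 and 4 were high, and replicates 2 and 3 lay within the WT range. Without OPA1KO replicate 1 or 4 the unadjusted p was 0.0559 and 0.0536. Its neighbour 19.9 kb in was at 5.81 ± 1.34 CPM in OPA1KO and 5.31 ± 1.89 CPM in WT libraries.

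**Figure D3:**
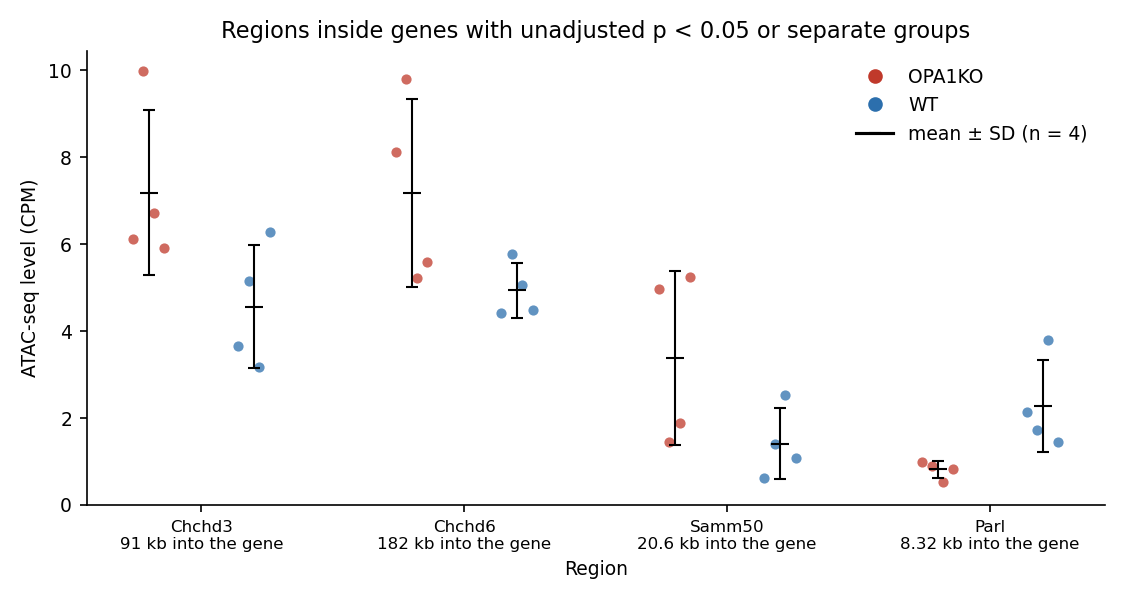
Level in CPM (y axis, from 0) in each library at the regions with an unadjusted p under 0.05, in Chchd3, Chchd6 and Samm50, and at the region of Parl where the groups did not overlap, which was under the filter; OPA1KO is left of WT and bars give mean ± SD (n = 4). All levels are under 10 CPM; 1 OPA1KO library stands above the other points at Chchd3, and 2 do at Chchd6 and at Samm50.

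The prohibitin gene Phb2 was among the steadiest of the 10. Its start region (chromosome 6, 124711925 to 124712448) was at 74.9, 84.0, 82.5 and 81.1 CPM in OPA1KO libraries and 77.3, 80.2, 79.2 and 75.9 CPM in WT libraries. The WT range lay inside the OPA1KO range, and this was the 1 start of the 10 with a higher OPA1KO mean (log2 fold change 0.04 ± 0.09, 95% interval of the fold 0.911 to 1.17, edgeR adjusted p = 0.965). The region also covers the start of Emg1, a ribosome assembly gene that runs the other way from 111 bp upstream, so its counts belong to both promoters. The other 3 regions in the Phb2 window lie over other genes: one over Lpcat3, a phospholipid acyltransferase gene (3.70 ± 0.727 CPM in OPA1KO and 4.28 ± 1.36 CPM in WT), and a pair over Ptpn6, which encodes the leukocyte phosphatase SHP-1. The higher of the Ptpn6 pair (124723564 to 124724061) was at 25.1 ± 2.01 CPM in OPA1KO and 28.5 ± 5.99 CPM in WT libraries (−0.18 ± 0.15, edgeR adjusted p = 0.892). Phb, the partner subunit, was at 55.4 ± 2.85 CPM in OPA1KO and 55.1 ± 2.89 CPM in WT libraries at its gene end (0.01 ± 0.10, edgeR adjusted p = 0.998).

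Letm1, the inner membrane cation exchanger gene, had 1 region, over its start (chromosome 5, 33782299 to 33783070). It was at 54.1, 55.5, 55.0 and 53.2 CPM in OPA1KO libraries and 49.1, 61.9, 56.2 and 51.1 CPM in WT libraries. The OPA1KO libraries lay close together and inside the WT range. The fold change was near 0 on the log2 scale (0.00 ± 0.10, 95% interval of the fold 0.863 to 1.15, edgeR adjusted p = 0.998), and its sign turned when libraries were scaled by total counts.

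Among the proteases, Parl was at 38.9, 42.8, 36.2 and 35.3 CPM at its start in OPA1KO libraries and 37.3, 41.8, 36.7 and 42.2 CPM in WT libraries (chromosome 16, 20301798 to 20302660). The groups overlapped widely (log2 fold change −0.05 ± 0.11, edgeR adjusted p = 0.975). A second Parl region, 8.32 kb in (20293852 to 20294046), was the 1 member region under the filter and the 1 of 32 where the groups did not overlap, against 3.98% of all regions. Its counts were 7, 5, 4 and 5 in OPA1KO libraries and 14, 11, 18 and 8 in WT libraries, all OPA1KO libraries below all WT libraries after scaling (0.815 ± 0.199 CPM in OPA1KO and 2.27 ± 1.06 CPM in WT). Tested with no filter, its log2 fold change was −1.44 ± 0.52 (unadjusted p = 0.00882, edgeR adjusted p = 0.572).

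Afg3l2, which encodes a subunit of the m-AAA protease, had the smallest relative spread of the 10 genes, read at its gene end (chromosome 18, 67448937 to 67449617). It was at 96.2, 98.0, 95.7 and 94.4 CPM in OPA1KO libraries and 103, 100, 98.2 and 97.6 CPM in WT libraries. The groups overlapped only between OPA1KO replicate 2 and WT replicate 4 (log2 fold change −0.05 ± 0.08, 95% interval of the fold 0.859 to 1.08, edgeR adjusted p = 0.951). Its coefficient of variation over the 8 libraries was 2.67%, where 0.449% of 1113 start regions of like level had a smaller one, and below the 4.07% that counting error alone would give at its mean count of 604. Phb2 and Spg7 were also below their counting error, at 4.02% against 4.52% and 5.16% against 5.51%, whereas Immt was at 12.3% against 3.53% and Chchd6 at 15.4% against 7.34%. Each coefficient of variation is an estimate from 8 libraries, and whether any differs from counting error was not tested. A wide region inside Afg3l2 (67406137 to 67406985) was at 19.9 ± 2.36 CPM in OPA1KO and 18.1 ± 1.15 CPM in WT libraries (0.14 ± 0.16, edgeR adjusted p = 0.927). Its other 3 regions, one of them over the tubulin gene Tubb6, each had a mean below 10 CPM in both groups.

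Spg7, which encodes the paraplegin subunit, was at 49.7, 54.1, 55.6 and 50.4 CPM at its start in OPA1KO libraries and 51.4, 57.2, 53.2 and 56.0 CPM in WT libraries (chromosome 8, 123065094 to 123065904). The groups overlapped (log2 fold change −0.06 ± 0.10, edgeR adjusted p = 0.961). Its second region, 4.40 kb outside the gene, lay over an end of the ribosomal protein gene Rpl13 at 29.4 ± 2.19 CPM in OPA1KO and 30.2 ± 0.718 CPM in WT libraries (−0.04 ± 0.13, edgeR adjusted p = 0.982).

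**Figure D4:**
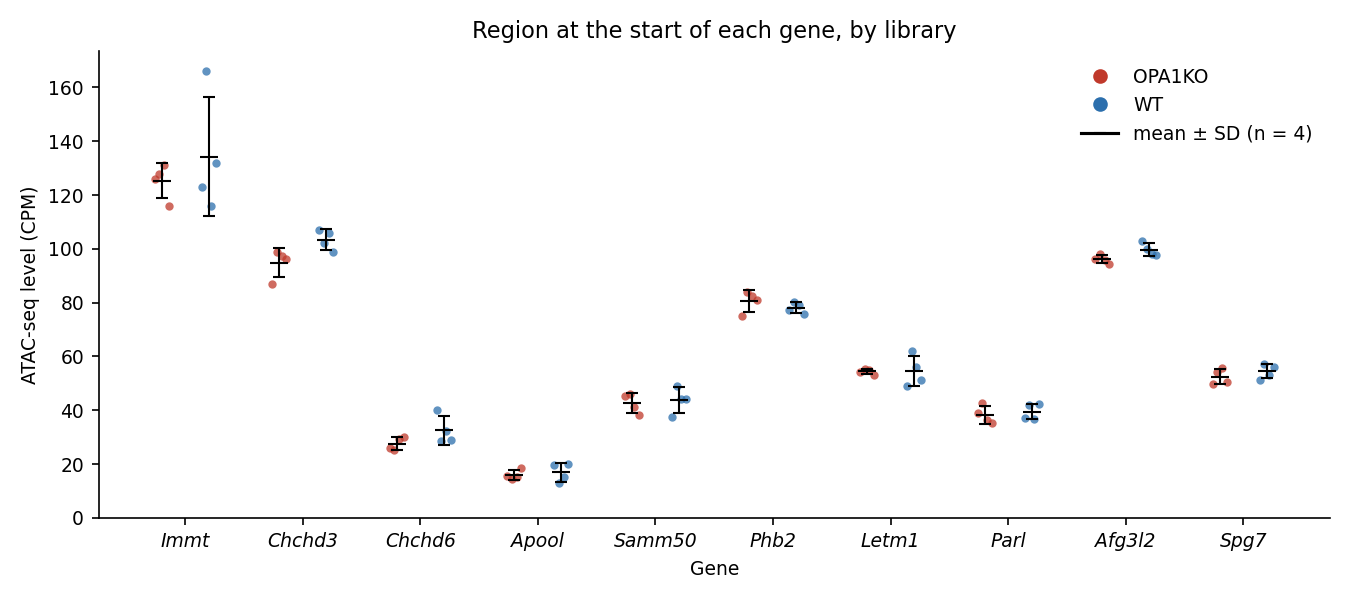
Level in CPM (y axis, from 0) of the region at the start of each of the 10 genes (for Afg3l2, at a gene end) in every library, OPA1KO left of WT, with mean ± SD (n = 4). The groups overlap at all 10 genes, and the single high point is WT replicate 2 at Immt, at 166 CPM.

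Levels of the starts can be compared between genes per length, though the Phb2 region also covers the start of Emg1 and counts for both genes. Over all 8 libraries Phb2 was at 152 ± 6.10 CPM per kb of region (SD, n = 8), Chchd3 at 147 ± 9.31, Afg3l2 at 144 ± 3.84 and Immt at 139 ± 17.1. Neighbours in that order differed by less than the SD of at least one of the pair; Immt lay below Afg3l2 by more than the small SD of Afg3l2. Samm50 followed at 82.9 ± 7.55 CPM per kb, Letm1 at 70.7 ± 4.92 and Spg7 at 66.0 ± 3.41, where Spg7 lay within the SD of Letm1 but Letm1 not within that of Spg7. Apool at 46.0 ± 7.24 and Parl at 45.1 ± 3.45 CPM per kb lay within each other's SD. Chchd6, at 38.2 ± 5.87 CPM per kb, came last and was below both by more than either SD. In the table as a whole, Phb2, Chchd3, Afg3l2 and Immt were above 85.3% to 88.3% of start regions per length, and Chchd6 above 34.4%.

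Some libraries were high or low at many starts together. In WT replicate 2, 8 of the 10 starts were above their mean over libraries and together they summed to 700 CPM, where 60.7% of all start regions in that library were above theirs. In OPA1KO replicate 1, 2 of 10 were above, with a sum of 613 CPM and 38.8% of all start regions above. The sums were 613, 647, 639 and 613 CPM in OPA1KO replicates 1 to 4 and 645, 700, 637 and 647 CPM in WT replicates 1 to 4, so the groups overlapped. For the regions inside the genes the sums were 135, 126, 116 and 124 CPM in OPA1KO libraries and 105, 121, 120 and 111 CPM in WT libraries, which overlap too.

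Summed per gene over all regions within 10 kb, the 10 members gave log2 fold changes of −0.11 to 0.04, with 2 higher and 8 lower and a median of −0.04. Over all 15896 genes tested the same way, 6590 were higher and 9306 lower, with a median of −0.02. Chchd6, counted as higher, and Letm1, counted as lower, were both at 0.00. In edgeR's test on sums, 0 members were under 0.05 by the adjusted p and 0 by the unadjusted p, against 0.0189% and 5.28% of all genes. Immt had the lowest value, at 138 ± 6.77 CPM in OPA1KO and 149 ± 24.0 CPM in WT libraries (−0.11 ± 0.09, edgeR adjusted p = 0.998). Samm50 had the highest, at 51.9 ± 2.66 CPM in OPA1KO and 50.4 ± 6.16 CPM in WT libraries (0.04 ± 0.10, edgeR adjusted p = 0.998), and without WT replicate 1 its sign turned (−0.03). The intervals of all 10 folds lay between 0.758 and 1.20, the bounds of Apool.

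Genes that work with the members were read at the region of highest level within 1 kb of either gene end, and 0 passed edgeR's test after adjustment, with 1 (Chchd2) at an unadjusted p under 0.05 and 2 (Chchd2 and Atad3a) whose groups did not overlap. Among the 8970 tested start regions of all genes, 0 were called, 359 were at an unadjusted p under 0.05 and 271 had groups that did not overlap. Both partner counts were near those shares, though start regions were taken at a start only and partner regions at either end. The lists hold 14, 17, 9 and 13 genes, of which those without a tested region at an end are left out of the counts. Of the MICOS and SAM partners, 8 of 13 regions were higher and 5 lower (median log2 fold change 0.04). Chchd2, which encodes a CHCH-domain protein reported to bind MICOS, was at 40.9, 44.8, 45.1 and 46.3 CPM in OPA1KO libraries and 54.6, 51.9, 54.1 and 49.7 CPM in WT libraries. All OPA1KO libraries lay below all WT libraries (log2 fold change −0.25 ± 0.10, unadjusted p = 0.0220, edgeR adjusted p = 0.700). Slc25a46, an outer membrane carrier-like gene, was at 37.4 ± 2.73 CPM in OPA1KO and 42.9 ± 1.87 CPM in WT libraries (−0.20 ± 0.11, edgeR adjusted p = 0.825).

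Of the prohibitin, stomatin and protease partners, 7 of 15 regions were higher and 8 lower (median 0.00). Atad3a, an inner membrane AAA protein that contacts cristae and mitochondrial DNA, was at 61.2, 56.4, 59.7 and 56.6 CPM in OPA1KO libraries and 42.3, 53.6, 55.7 and 51.3 CPM in WT libraries. All OPA1KO libraries lay above all WT libraries (0.21 ± 0.10, unadjusted p = 0.0559, edgeR adjusted p = 0.793). The chaperonin gene Hspd1 was at 113 ± 15.1 CPM in OPA1KO and 102 ± 7.62 CPM in WT libraries (0.15 ± 0.09, edgeR adjusted p = 0.836). Yme1l1, one of the proteases that cleave OPA1, was at 136 ± 7.47 CPM in OPA1KO and 139 ± 6.50 CPM in WT libraries (−0.03 ± 0.08, edgeR adjusted p = 0.975).

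Partners of LETM1 in cation handling had 1 of 9 regions higher and 8 lower (median −0.03). The calcium uniporter regulator gene Micu2 was at 27.0 ± 1.02 CPM in OPA1KO and 31.1 ± 4.09 CPM in WT libraries (−0.21 ± 0.13, edgeR adjusted p = 0.846). The one higher was Ghitm, which encodes the inner membrane protein TMBIM5, at 138 ± 10.3 CPM in OPA1KO and 132 ± 4.39 CPM in WT libraries (0.06 ± 0.08, edgeR adjusted p = 0.947). Genes for cardiolipin, the lipid of cristae, and for ATP synthase dimers had 8 of 13 regions higher and 5 lower (median 0.01). Pgs1, which makes the cardiolipin precursor phosphatidylglycerol phosphate, was at 46.8 ± 7.41 CPM in OPA1KO and 40.9 ± 5.03 CPM in WT libraries (0.19 ± 0.12, edgeR adjusted p = 0.848). Prelid1, a carrier of phosphatidic acid, was at 18.7 ± 1.97 CPM in OPA1KO and 15.7 ± 3.67 CPM in WT libraries (0.24 ± 0.17, edgeR adjusted p = 0.873).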

How the data were processed

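A single deposited table held raw ATAC-seq counts per region for 4 OPA1KO and 4 WT libraries. The builds mm10 and GRCm38 are named in the submitters' processing notes, with the tools MACS2 2.1.0.20150603, bedtools, SAMtools, Picard 1.65 and cutadapt 1.9. Their settings, the aligner, any shift of read ends and the rule for the common regions are not given in the sources used here. Coordinates are printed as deposited. Whether starts count from 0 or 1 is not given.

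Counts were filtered with filterByExpr (59247 regions kept), scaled with TMM factors (0.947 to 1.03) and tested with edgeR 4.0.16 (R 4.3.3, glmQLFit with robust estimation, glmQLFTest) over all 8 libraries without covariates, with Benjamini-Hochberg adjustment over all tested regions and calls at 0.05. The common dispersion was 0.027. CPM are TMM-scaled. Gene sums used every region within 10 kb of each protein-coding RefSeq model and the same test. On simulated counts for this comparison (59024 regions), 23.9% of regions changed by 1.5-fold, 53.7% by 2-fold and 86.4% by 3-fold were called, along with 7 unchanged regions.

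The members, lists and motifs were chosen with earlier results of these data known. Named with values are, for each member, its highest region, its start region and any with an unadjusted p under 0.05 or separate groups, and the 2 genes of each partner list with the smallest p; Opa1, Phb, Yme1l1 and neighbouring genes were added for their role or place. Alternatives were DESeq2 1.42.0, its size factors, total counts, limma 3.58.1 with voom, no filter, CPM of at least 5 in 4 libraries, a replicate block, other windows (0 and 50 kb) and each library left out.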

Additional observations from a re-analysis of the deposited data

How the results depend on the processing

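The count of 0 called member regions and of 0 called member genes on sums held under each alternative run: scaling, tool, filter, replicate block, window and each library left out. The members' median log2 fold change stayed between −0.053 and −0.019. The number of member regions with an unadjusted p under 0.05 was 3 in the main run. It was 2 with the replicate block and 1 to 4 with a library left out (1 without OPA1KO replicate 1 or WT replicate 3, 2 without OPA1KO replicate 2 or WT replicate 1). Within 50 kb it was 6, but that window holds more regions, 2 to 13 per gene against 1 to 7 within 10 kb. Of all tested regions, 6.38% had such a p in the main run and 5.12% with the replicate block. With a library left out that share was 5.40% to 8.56%. Over all regions, 12 were called, against 43 with DESeq2, 4 with limma-voom, 7 with the stricter filter, 1 with the replicate block and 1 to 68 with a library left out (68 without WT replicate 2, 22 without OPA1KO replicate 4, 4 without OPA1KO replicate 2, and 1 without OPA1KO replicate 1 or 3 or WT replicate 3 or 4); the cause was not tested. The labels do not say whether replicate numbers pair the libraries. Deviations of same-numbered OPA1KO and WT libraries correlated at −0.121 to −0.0119, and those of differently numbered ones at −0.226 to 0.208. With 4 libraries per group these values cannot settle whether the libraries were paired.

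Apart from the sums over inside regions below, the signs that turned were of log2 fold changes of small size. The Letm1 region and its sum were at 0.00 with limma-voom and the replicate block, 0.01 with the stricter filter and 0.02 with total counts. The Chchd6 sum was at −0.04 within 50 kb and 0.00 with limma-voom and the replicate block, and the Phb2 sum at 0.04 for regions over the gene alone and 0.00 with total counts. With only regions inside the gene and away from its start, a choice made after seeing the data, the sums were 0.27 for Chchd3 and 0.07 for Afg3l2. With a library left out, start regions ranged from −0.20 to 0.01 (Apool), −0.16 to 0.02 (Immt), −0.05 to 0.06 (Letm1) and −0.10 to 0.03 (Samm50), and the strong Chchd6 region from −0.01 to 0.14. Sums ranged from −0.19 to 0.05 (Apool), −0.05 to 0.04 (Chchd6), −0.16 to 0.01 (Immt), −0.05 to 0.07 (Letm1), −0.05 to 0.01 (Phb2) and −0.03 to 0.10 (Samm50). Fold changes were least certain inside genes, with a median SE of 0.31, against 0.22 in the flanks and 0.10 at starts. Counts inside genes were as low as 4 per library. At regions of all levels 23.9% of simulated 1.5-fold changes were called, a share that was not split by level.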
